A study of Mus musculus with 14 samples.

Results

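The response described here is that of mouse ventricles labelled Rad knockout (Rad KO) to transverse aortic constriction (TAC), read in 4 libraries labelled Rad KO TAC against 3 libraries labelled Rad KO sham. These are 7 of the 14 libraries of the study; the other 7 are 4 WT TAC and 3 WT sham libraries, used here only for comparison. TAC narrows the aortic arch by surgery and so puts a pressure load on the left ventricle, while a sham animal undergoes the operation without the narrowing. Tamoxifen was given 4 weeks after TAC, and hearts were taken over 2 months after TAC and over 1 month after the knockout of Rad. The labels give the tamoxifen timing for every library, WT and sham included. They state neither the recombinase and its driver, nor the deleted part of the gene, nor the age, sex and strain of the mice. Whether each library is a different animal is also unstated, so a p-value here reflects library-to-library spread, which may be technical.

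Rad is the product of Rrad, a GTPase gene of the RGK group; the protein binds beta subunits of calcium channels and restrains the L-type calcium channel of cardiac muscle cells. A ventricle under sustained pressure load grows, returns in part to a fetal gene programme that includes natriuretic peptides and slow myosin, lays down extracellular matrix through its fibroblasts, and lowers genes of fatty acid oxidation, its main fuel pathway. The comparison asks which of these changes are found when TAC hearts are set against sham hearts after the knockout of Rad.

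Nppb, the gene of B-type natriuretic peptide, and Ankrd1, the gene of a titin-associated ankyrin repeat protein of the sarcomere, are textbook load-responsive genes and both rose here, so the sequence around their starts is shown. Each window holds 250 bases before and 50 after the RefSeq gene start (GRCm38.p6), read 5′ to 3′ on the gene's own strand, at chr4:147985650-147985949 (plus strand) for Nppb and chr19:36119795-36120094 (minus strand) for Ankrd1. Capitals mark matches, on either strand, to CATTCC, the MCAT core bound by TEAD factors, and to TATAAA, the TATA box.
Nppb: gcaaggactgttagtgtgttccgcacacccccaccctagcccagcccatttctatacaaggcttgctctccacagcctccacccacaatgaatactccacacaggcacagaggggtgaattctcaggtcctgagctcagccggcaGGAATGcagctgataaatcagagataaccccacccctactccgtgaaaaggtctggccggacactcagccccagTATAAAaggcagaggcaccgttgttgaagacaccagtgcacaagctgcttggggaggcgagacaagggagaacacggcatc
Ankrd1: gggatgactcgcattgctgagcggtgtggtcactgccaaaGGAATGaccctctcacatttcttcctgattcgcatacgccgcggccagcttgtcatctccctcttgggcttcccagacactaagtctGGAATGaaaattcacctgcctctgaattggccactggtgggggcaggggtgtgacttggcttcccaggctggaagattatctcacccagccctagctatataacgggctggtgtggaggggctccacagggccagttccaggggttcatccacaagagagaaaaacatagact
The Nppb window held 1 match to CATTCC and 1 to TATAAA, and the Ankrd1 window held 2 matches to CATTCC. Of the 148 genes that rose with TAC, 106 had a window in the RefSeq table, and 17.9% of these windows held CATTCC, against 12.1% of the 10398 windows of all tested genes. The share was 16.1% over the 62 windows of genes that fell, so both directions lay above the share of all genes and near each other. TATAAA was present in 12.3% of windows of genes that rose, in 11.3% of those of genes that fell and in 7.3% of all. The AP-1 motif TGANTCA was found in 5.66%, 3.23% and 4.87% of these windows. These matches are letters in a window, and binding was not measured.

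The 7 libraries held between 14546176 and 16165254 counts. Levels are given as CPM (counts scaled to library size), scaled over all 14 libraries, and listed in the order of the replicate numbers. The ventricular muscle cell markers Myh6, Tnnt2, Tnni3, Actc1, Myl2 and Myl3 were high in every library, with Tnnt2 at 3289 to 4191 CPM in Rad KO TAC and 4012 to 4784 CPM in Rad KO sham. Rrad itself (chromosome 8) was not lowered by the label: it had 164, 242, 198 and 119 CPM in Rad KO TAC 1 to 4 and 162, 182 and 228 CPM in Rad KO sham 1 to 3, beside 128 to 242 CPM in WT TAC and 199 to 229 CPM in WT sham. Gene-level counts include reads from exons that a deletion may leave in place, so this level neither checks nor refutes the label, and "Rad KO" below means the libraries labelled so. Esr1, the gene of oestrogen receptor alpha, set 1 library apart: it had 1122, 338, 1337 and 2461 CPM in Rad KO TAC and 2018, 1.12 and 1933 CPM in Rad KO sham, so that sham 2 lacked the level of the other 6. In WT it split the libraries by operation with 1 exception, at 0.918, 1.61, 0.556 and 1.19 CPM in WT TAC and 1.27, 1503 and 2224 CPM in WT sham. Esr1 therefore differed among libraries of 1 label and between the labels, and each comparison of Rad KO with WT below is made between libraries that also differ in Esr1, whose part was not tested. The counts of calls are therefore also given without sham 2. Of the 73 named genes that were called, 67 lost the call without it, which is stated gene by gene only for some.

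After TAC, some genes of load-responsive muscle proteins (4 of 16 tested) and of the matricellular and elastic matrix (12 of 24) rose in Rad KO hearts, and some of fatty acid use (5 of 30) and of the mitochondrial genome (2 of 13) fell. These list calls rest on all 3 sham libraries, since 0 list members passed without sham 2. The lists were chosen with earlier results of these data known, so all list counts and medians below are a description. Of 14122 genes tested, 148 rose and 91 fell at an adjusted p under 0.05, which is 1.69% of genes in all, 1.05% higher and 0.644% lower (quasi-likelihood test of edgeR, Benjamini-Hochberg adjusted; all adjusted p-values below come from this test unless another is named). DESeq2 called 721 of 15102 genes (4.77%). Without adjustment, edgeR gave 2450 genes (17.3%) with p under 0.05, where 706 would be reached by chance. The rises were the larger changes, with a median log2 fold change of 1.31 over the 148 and -0.85 over the 91. A change of at least 1 on the log2 scale was seen in 105 of the genes that rose and in 32 of those that fell, and one of at least 3 in 18 and 4. The 4 TAC libraries did not overlap the 3 sham libraries in any of the 239 genes; over all tested genes, the libraries were separated with TAC higher in 8.26% and with TAC lower in 7.83%. By level, 66 of the 148 and 48 of the 91 lay among the genes of the highest of 3 equal classes of mean CPM. The split by biotype was 140 protein-coding genes among the risen and 84 among the fallen. Median change over all tested genes was 0.01.

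**Figure D1:**
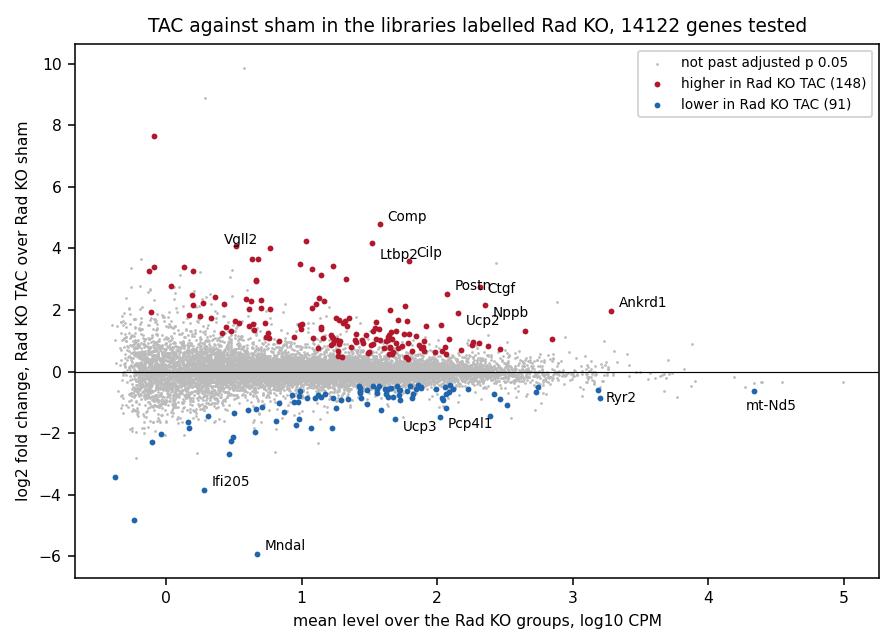
Each point is 1 of 14122 tested genes, with its mean level over the Rad KO groups (log10 CPM) on the horizontal axis and its log2 fold change, Rad KO TAC over Rad KO sham, on the vertical axis. The 148 genes that rose (red) reach larger changes than the 91 that fell (blue), and Mndal lies lowest at -5.92. The point of a gene with 0 counts in every sham library depends on the fitted prior and is no measured fold.

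The load-responsive list had 16 tested members, of which 4 rose and 0 fell, with a median log2 fold change of 1.02 against 0.01 for all genes. Nppb had 261, 605, 297 and 315 CPM in Rad KO TAC and 47.7, 86.2 and 116 CPM in Rad KO sham. Every TAC library lay above every sham library, TAC 2 stood far above the other TAC libraries, and the log2 fold change was 2.15 (SE 0.34, adjusted p = 0.0185). Ankrd1 had 2794, 5910.0, 1916 and 1696 CPM in Rad KO TAC and 594, 1025 and 751 CPM in Rad KO sham. TAC 2 was again the highest library, and the log2 fold change was 1.97 (SE 0.41, adjusted p = 0.0435). Ankrd23, another ankyrin repeat protein of muscle, and Mybpc2, the fast myosin-binding protein C, completed the 4, with log2 fold changes of 1.64 (SE 0.24) and 1.67 (SE 0.27).

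Several markers of the fetal programme had changes of similar or larger size that did not pass the threshold. Nppa, the atrial natriuretic peptide gene, had 244, 1349, 148 and 262 CPM in Rad KO TAC and 25.7, 70.7 and 32.7 CPM in Rad KO sham. The groups did not overlap, but TAC 2 held more than the other 3 TAC libraries together, and the log2 fold change was 3.54 (SE 0.77, adjusted p = 0.0519). Myh7, the slow beta-myosin heavy chain, had 1216, 2258, 808 and 788 CPM in Rad KO TAC and 491, 142 and 163 CPM in Rad KO sham, a log2 fold change of 2.26 (SE 0.50, adjusted p = 0.0537). Xirp2, which binds actin at intercalated discs, had 1.12 (SE 0.27, adjusted p = 0.0725), and Acta1, skeletal alpha-actin, had 1.01 (SE 0.33, adjusted p = 0.158). Of the sarcomere list, 0 of 18 tested genes passed, with a median of 0.05. Myh6, the adult alpha-myosin heavy chain, had -0.35 (SE 0.15, adjusted p = 0.266). Myh6 and Myh7 are near-identical neighbours on chromosome 14, and reads shared between them could be split by the counting.

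Among the lists, which were chosen with earlier results known, those of extracellular matrix held the most calls. Among 24 matricellular and elastic fibre genes, 12 rose and 0 fell, with a median log2 fold change of 1.12. They were Comp, Cilp, Ltbp2, Ltbp3, Postn, Thbs1, Thbs4, Mfap4, Mfap5, Tnc, Eln and Fbln2. Cilp, a cartilage intermediate layer protein that binds transforming growth factor beta, had 187, 145, 80.5 and 42.5 CPM in Rad KO TAC and 8.16, 10.2 and 9.82 CPM in Rad KO sham, a log2 fold change of 3.60 (SE 0.46, adjusted p = 0.00983). Comp, a pentameric thrombospondin, had 138, 105, 38.2 and 9.11 CPM in Rad KO TAC and 2.22, 2.63 and 3.10 CPM in Rad KO sham, a log2 fold change of 4.78 (SE 0.85, adjusted p = 0.0248). In both genes TAC 1 was highest and TAC 4 lowest, though still above every sham library. Postn, periostin, a protein of activated fibroblasts, had 293, 219.8, 226 and 62.7 CPM in Rad KO TAC and 37.4, 34.2 and 33.6 CPM in Rad KO sham. Here 3 TAC libraries lay together and TAC 4 lay well below them, with a log2 fold change of 2.52 (SE 0.41, adjusted p = 0.0199). Thbs1, thrombospondin 1, was more even, with 30.0, 19.6, 20.5 and 13.4 CPM in Rad KO TAC and 5.71, 3.82 and 4.20 CPM in Rad KO sham (log2 fold change 2.20, SE 0.27, adjusted p = 0.00983). Thbs4 and Mfap4, a microfibril-associated protein, had log2 fold changes of 3.01 (SE 0.56) and 2.12 (SE 0.34). Fbln2, a fibulin, had the smallest change of the 12, at 0.57 (SE 0.11).

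Collagens were the next group, with 6 of 18 tested genes higher, 0 lower and a median of 0.70. The 6 were short-chain and fibril-associated collagens and 1 minor fibrillar chain: Col8a1 (1.30, SE 0.17), Col8a2 (3.66, SE 0.67), Col12a1 (2.93, SE 0.57), Col14a1 (1.30, SE 0.28), Col16a1 (1.03, SE 0.21) and Col5a2 (1.00, SE 0.17), all as log2 fold changes. Col8a1 had 71.5, 82.8, 58.3 and 47.7 CPM in Rad KO TAC and 26.3, 24.6 and 28.7 CPM in Rad KO sham, a clear separation. The major fibrillar chains did not pass. Col1a1 had 347, 169, 225 and 168 CPM in Rad KO TAC and 117, 105 and 116 CPM in Rad KO sham, a log2 fold change of 1.02 (SE 0.23, adjusted p = 0.0616), and Col3a1 had 0.95 (SE 0.27, adjusted p = 0.109). Per length, these 2 remained the more abundant transcripts: the deposited FPKM averaged 34.5 for Col1a1, 43.6 for Col3a1 and 8.26 for Col8a1 in Rad KO TAC.

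Proteins that bind, cross-link or cleave the matrix followed. Of 10 proteoglycans, Fmod (fibromodulin, 3.15, SE 0.66) and Bgn (biglycan, 1.32, SE 0.29) rose. Of 20 cross-linking enzymes, proteases and inhibitors, 4 rose: Timp1, the metalloproteinase inhibitor (2.30, SE 0.40), Adamtsl2 (1.40, SE 0.22), Loxl1, a lysyl oxidase (1.15, SE 0.25), and P4ha1, a collagen prolyl hydroxylase subunit (0.76, SE 0.11). Of 18 genes of transforming growth factor beta signalling and the CCN family, 4 rose. Ctgf, the CCN family member also called connective tissue growth factor, had 228, 828, 204 and 181 CPM in Rad KO TAC and 74.3, 32.2 and 53.7 CPM in Rad KO sham. Its log2 fold change was 2.76 (SE 0.55, adjusted p = 0.0390), and 1.94 without the high library TAC 2 (adjusted p = 0.00765). The call was lost in the replicate block (adjusted p = 0.0513), without TAC 3 (0.0548) and without sham 1, 2 or 3 (0.119, 0.166 and 0.138). Wisp2, another CCN member, had 3.42 (SE 0.63), Scx, the tendon transcription factor scleraxis, had 1.54 (SE 0.29), and Inhba, an activin subunit, had 1.45 (SE 0.28).

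Fibroblast markers moved less than the matrix genes: 2 of 14 rose, Pi16 (1.49, SE 0.27) and Mfap5, which is also in the matrix list, and the list median was 0.20, with 0.01 without TAC 1 and 0.30 without TAC 2. The summed level of the 14 markers ranged from 2148 to 4252 CPM in Rad KO TAC and from 2409 to 2701 CPM in Rad KO sham, so the groups overlapped. The part of fibroblast number in the matrix result was not tested, and in whole ventricle a change in cell number cannot be told apart from a change in RNA per cell. Mural, endothelial and macrophage lists had 0 genes past the threshold in either direction, among 10, 14 and 17 tested, with medians of -0.29, -0.14 and 0.09. Without TAC 2 the mural and endothelial medians were -0.08 and -0.07 and that of macrophages was 0.27, and without TAC 1 that of macrophages was -0.06. Lists of lymphocyte, neutrophil, Schwann cell, adipocyte, red cell, epicardial, atrial and skeletal muscle markers had 0 calls as well, each with at most 6 tested genes. The T cell markers Cd3e, Cd3d and Cd8a stayed under 0.5 CPM in each of the 7 libraries.

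Genes outside these lists also rose strongly. Vgll2, a TEAD cofactor of skeletal muscle, had 11.2, 21.9, 7.72 and 3.36 CPM in Rad KO TAC and 0.593, 0.724 and 0.711 CPM in Rad KO sham (log2 fold change 4.02, SE 0.63, adjusted p = 0.0170). TAC 4 was the lowest TAC library and still above each sham library. Sfrp2, a secreted Wnt antagonist, had 3.34 (SE 0.62). Edn3, endothelin 3, was among the rises with the smallest p. It had 40.0, 39.3, 27.4 and 30.4 CPM in Rad KO TAC and 13.3, 8.36 and 9.63 CPM in Rad KO sham (1.72, SE 0.19, adjusted p = 0.00690). Sik1, a salt-inducible kinase, had 46.3, 40.6, 42.9 and 39.0 CPM in Rad KO TAC and 22.8, 22.7 and 24.6 CPM in Rad KO sham (0.86, SE 0.10, adjusted p = 0.00945). The spread within each group was small for Sik1 (SD 3.18 CPM in TAC and 1.08 CPM in sham) and wider for Edn3 (6.32 and 2.59 CPM). Kcnj14, an inward rectifier potassium channel, had 1.21 (SE 0.15).

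**Figure D2:**
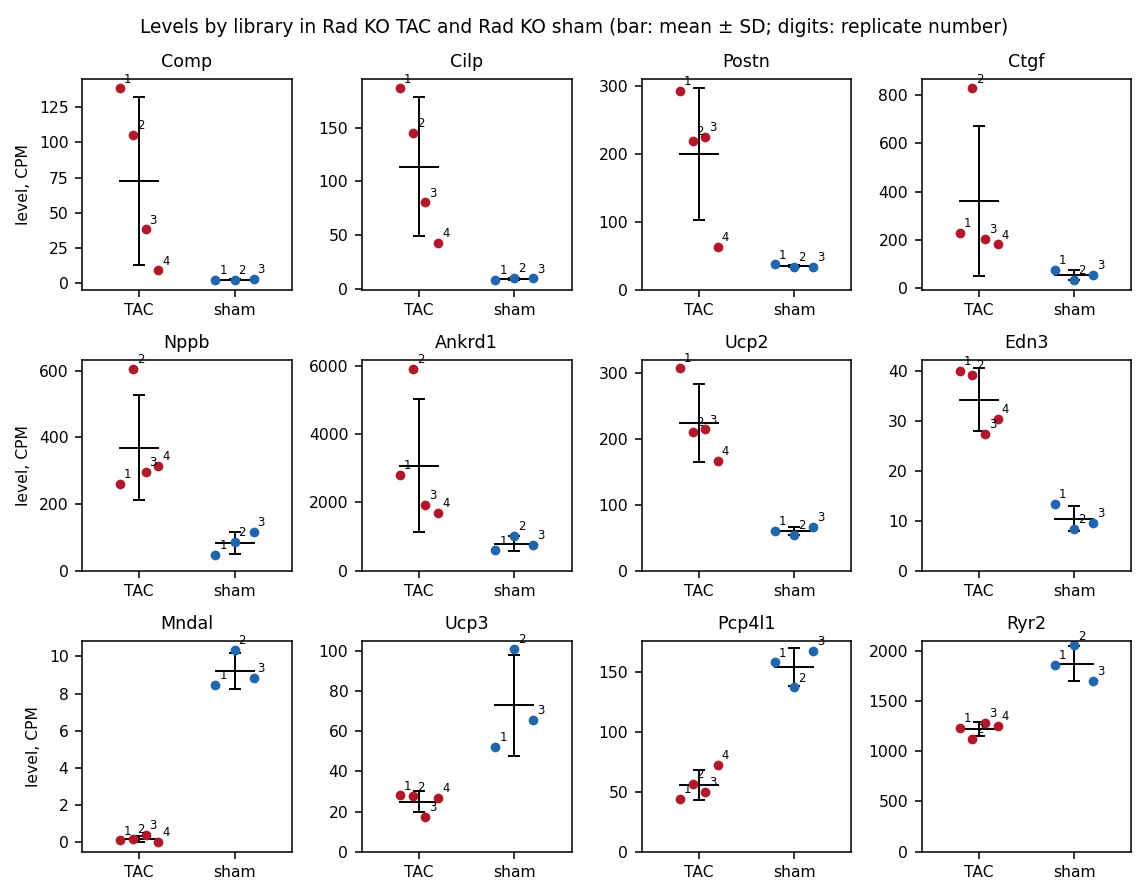
CPM of 12 genes in each Rad KO TAC library (red, left) and each Rad KO sham library (blue, right), with the replicate number beside the point and the bar giving the mean ± SD of 4 and 3 libraries. TAC and sham do not overlap in any panel. TAC 4 is the lowest TAC library for Comp, Cilp, Postn and Ankrd1, and TAC 2 is the highest for Nppb, Ankrd1 and Ctgf.

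The 4 TAC libraries did not respond to the same extent. Over the 148 genes that rose, the median log2 ratio to the sham mean was 1.33, 1.40, 1.13 and 0.87 in TAC 1 to 4, and over the 91 that fell it was -0.95, -0.91, -0.78 and -0.65. TAC 4 was the lowest TAC library in 93 of the 148 genes (62.8%), against 24.9% of all tested genes, and the highest in 50 of the 91 (54.9%), against 23.9% of all. These genes were chosen on the same libraries, so these shares are a description. Gene groups ranked the libraries differently. The load-responsive list was highest in TAC 2, with medians of 1.14, 1.58, 0.68 and 0.43 in TAC 1 to 4, while collagens were highest in TAC 1 and lowest in TAC 2, at 1.25, 0.26, 0.73 and 0.46. In TAC 2, fibroblast, mural cell, endothelial and macrophage markers were lower than in sham, with medians of -0.39, -1.27, -0.43 and -0.56. The part of these shifts in the gene results was not tested.

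**Figure D3:**
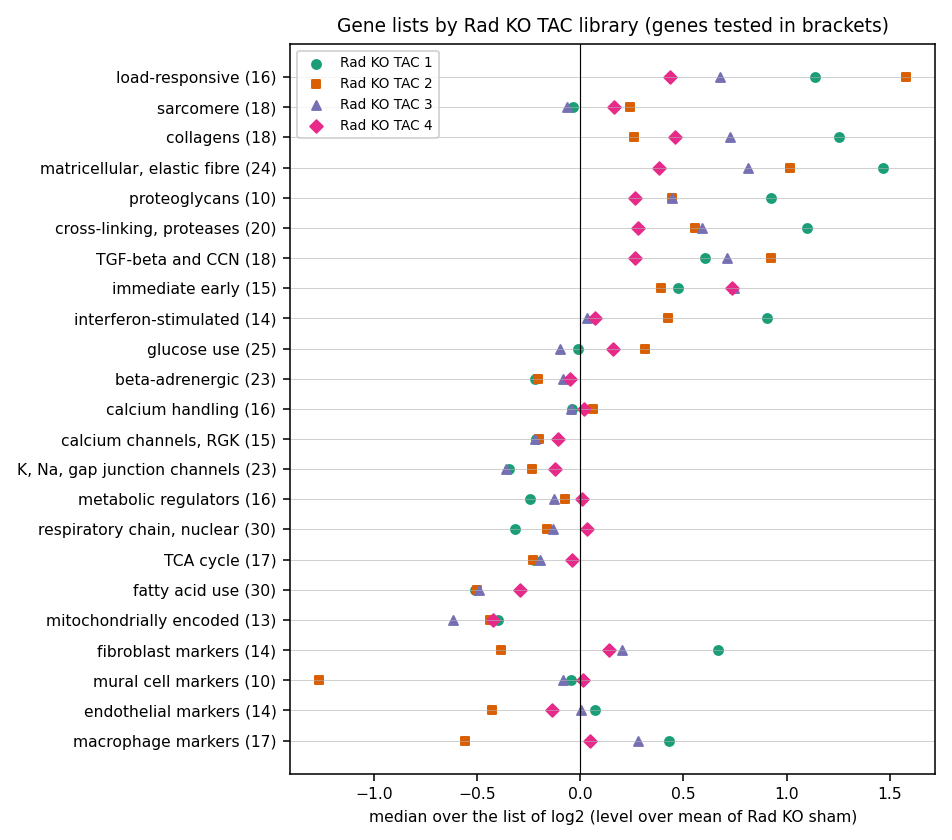
For each gene list (tested members in brackets), the median over its genes of the log2 ratio to the Rad KO sham mean, 1 symbol for each Rad KO TAC library. Matrix, load-responsive, immediate early and interferon lists lie to the right of 0 in all 4 libraries. Fatty acid and mitochondrially encoded lists lie to the left in all 4, as do those of the TCA cycle, both channel groups and beta-adrenergic genes. Mural cell markers stand at -1.27 in TAC 2 alone.

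Among genes of energy supply, calls were found in the fatty acid and mitochondrial genome lists and, in the other direction, in 1 glycolytic gene. All 30 tested genes of fatty acid uptake and oxidation had a negative log2 fold change, where 51.4% of all tested genes had a positive one; the list median was -0.41, and 5 genes passed, all lower. Cpt1a, a carnitine palmitoyltransferase that commits fatty acids to mitochondrial oxidation, had 46.8, 43.8, 40.4 and 38.4 CPM in Rad KO TAC and 64.6, 69.4 and 57.6 CPM in Rad KO sham (log2 fold change -0.59, SE 0.11, adjusted p = 0.0273). Slc27a1, a fatty acid transporter, had 144, 131, 133 and 140.3 CPM in Rad KO TAC and 189.8, 213 and 209 CPM in Rad KO sham (-0.57, SE 0.09, adjusted p = 0.0167). Both falls were modest in size and even across libraries. Hadh, a beta-oxidation dehydrogenase, had -0.51 (SE 0.11), and Acot1, an acyl-CoA thioesterase with near copies beside it that may share its reads, had -1.72 (SE 0.34). Ucp3, a mitochondrial carrier that follows fatty acid supply, was the steepest of the others, with 28.0, 27.5, 17.4 and 27.0 CPM in Rad KO TAC and 52.2, 101 and 65.6 CPM in Rad KO sham (-1.54, SE 0.22, adjusted p = 0.0152). Sham 2 had the highest Ucp3 level. Without it, as for most calls, the threshold was missed, with a log2 fold change of -1.23 (adjusted p = 0.0739).

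The genes of the mitochondrial genome pointed the same way. All 13 had a negative log2 fold change, with a median of -0.46, and mt-Nd5 and mt-Atp6 passed. The respiratory complex I gene mt-Nd5 had 16487, 17698, 17049.5 and 16939 CPM in Rad KO TAC and 31183, 24936 and 22990.4 CPM in Rad KO sham (-0.62, SE 0.13, adjusted p = 0.0464). TAC libraries were close together and sham 1 was the highest. Mitochondrial counts took 22.0%, 21.2%, 20.8% and 20.1% of all counts in Rad KO TAC 1 to 4, against 28.4%, 24.2% and 24.2% in Rad KO sham 1 to 3, and nuclear copies of mitochondrial genes can share these reads. Nuclear genes of the citric acid cycle (17 tested, median -0.17) and of the respiratory chain (30 tested, median -0.14) had 0 calls. Glucose use had a median of 0.10 over 25 genes and 1 call, Eno1, the glycolytic enolase, with 132, 165, 109 and 122 CPM in Rad KO TAC and 82.3, 88.1 and 79.9 CPM in Rad KO sham (0.67, SE 0.13, adjusted p = 0.0364). The kinase-phosphatase gene Pfkfb1 and the transaminase gene Gpt2, outside these lists, fell with log2 changes of -1.83 (SE 0.32) and -0.83 (SE 0.12).

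Of 77 tested members of the calcium handling, calcium channel, other channel and adrenergic lists, 3 fell (3.9%, beside 0.644% of all genes) and 0 rose. Ryr2, the calcium release channel of the sarcoplasmic reticulum, was the only call among 16 calcium handling genes, with 1229, 1123, 1278 and 1251 CPM in Rad KO TAC and 1862, 2052 and 1701 CPM in Rad KO sham (-0.61, SE 0.11, adjusted p = 0.0242). The groups were well apart and the TAC libraries close together. The calcium pump gene Atp2a2 and its inhibitor Pln had -0.17 (SE 0.11) and -0.09 (SE 0.09), neither past the threshold. Of 15 calcium channel and RGK family genes, 0 passed; the pore subunit Cacna1c had 239, 298, 289 and 296 CPM in Rad KO TAC and 371, 392 and 299 CPM in Rad KO sham (-0.33, SE 0.12, adjusted p = 0.193). Among 23 potassium, sodium and gap junction channel genes, Kcnj11, the pore of the ATP-sensitive potassium channel, fell (-0.57, SE 0.11, adjusted p = 0.0356), and the list median was -0.23. Kcnip2, which supports the transient outward current, had -0.19 (SE 0.20). Among 23 genes of adrenergic signalling, Adra1a, an alpha-1 receptor, fell, with 22.4, 12.1, 22.7 and 21.8 CPM in Rad KO TAC and 52.7, 37.6 and 33.7 CPM in Rad KO sham (-1.05, SE 0.22, adjusted p = 0.0472). Kcna2, a voltage-gated potassium channel outside the list, fell by 1.98 on the log2 scale (SE 0.38).

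Signalling and stress lists stood mostly below the threshold. Of 15 immediate early genes, 14 had a positive log2 fold change and Nr4a1, a nuclear receptor of that class, passed, with 19.3, 26.5, 19.4 and 26.5 CPM in Rad KO TAC and 11.3, 6.38 and 12.5 CPM in Rad KO sham (1.20, SE 0.22, adjusted p = 0.0295). Interferon-stimulated genes had a median of 0.42 over 14, 13 of them positive, and cell cycle genes had a median of 0.73 over 16, 15 of them positive, with 0 calls in each. By library the interferon median was 0.91, 0.42, 0.03 and 0.07 in TAC 1 to 4, and the list median was 0.20 without TAC 1. Lists for the unfolded protein and oxidative stress responses (17 genes, median 0.08), metabolic regulators (16, -0.11) and the circadian clock (16, -0.06) also had 0 calls.

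The response in Rad KO was set beside that in WT, which shares none of its libraries. In WT, 287 of 14323 genes rose (2.0%) and 155 fell (1.08%), 3.09% in all, and DESeq2 called 910 (6.12%). Of the 148 genes that rose in Rad KO, 141 had the same sign in WT, and 66 were called there too, which is 44.6% of the Rad KO list and 23.0% of the WT list. Of the 91 that fell, 86 were tested in WT, 83 had the same sign and 9 were called, which is 9.89% of the Rad KO list and 5.81% of the WT list. Their median log2 fold change in WT was 1.01 for the risen and -0.43 for the fallen. Over all 13953 genes tested in both labels, 68.3% had the same sign, the share to set beside these same-sign counts. Across these genes the 2 sets of fold changes had a Pearson correlation of 0.57, a description across genes, which are not independent replicates. A call in 1 label and not in the other is no difference, so the difference itself was tested in a model of all 14 libraries: edgeR called 0 of 14731 genes, with 754 (5.12%) at an unadjusted p under 0.05 and a smallest adjusted p of 0.503, and DESeq2 called 8 (0.0539%). Esr1 was 1 of the 8, with a difference of 10.18 on the log2 scale (DESeq2 adjusted p = 0.0123). Its level also differed widely among the libraries within WT sham and within Rad KO sham, as given above, so this value is not shown to be a response to TAC. The load-responsive median was 1.02 in Rad KO and 1.91 in WT. As a single gene, Myh7 was lower by 1.97 on the log2 scale in its Rad KO response (SE 0.76, edgeR unadjusted p = 0.0201). Like every other gene, it did not pass the edgeR threshold for the difference after adjustment. The fatty acid median was -0.41 in Rad KO and -0.13 in WT. Neither list difference was tested.

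**Figure D4:**
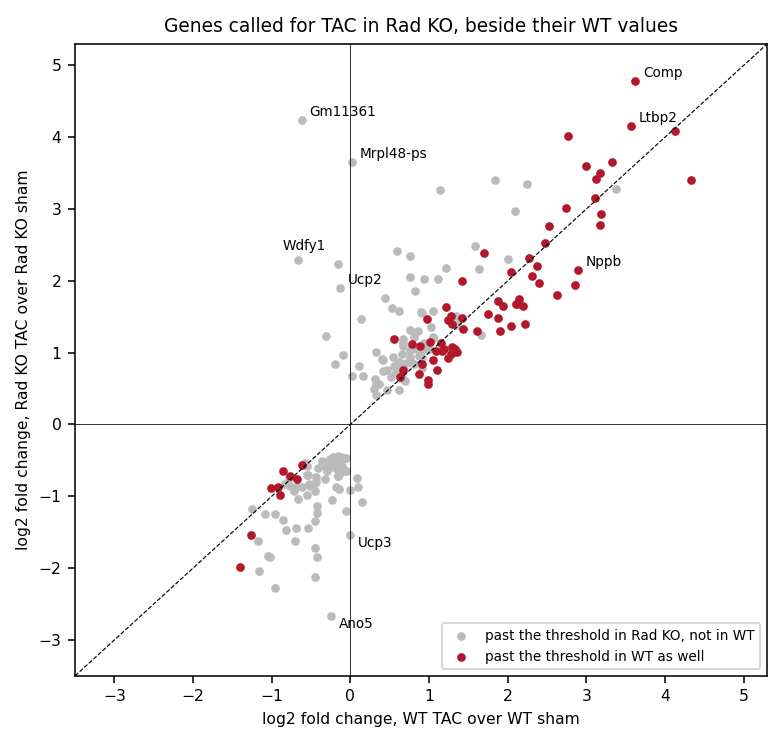
The log2 fold change in Rad KO (vertical) against that in WT (horizontal) for 233 of the 239 genes called in Rad KO; 5 were not tested in WT and 1 with 0 counts in Rad KO sham lies outside the axes. The 75 genes past the threshold in WT as well (red) all have the same sign in both labels, and Ucp2, Ucp3, Wdfy1, Gm11361, Mrpl48-ps and Ano5 lie near or across 0 in WT.

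By unadjusted p in edgeR, the genes whose responses differed most were Pim1, Gm33543, Irf2bp2, Pdzrn4, Gm19461 and Mndal. None of them passed there after adjustment (smallest adjusted p 0.503). DESeq2 called all of them but Mndal, with adjusted p-values from 0.00998 (Pim1) to 0.0426 (Gm19461), so the tools disagree on these genes. Pim1, a serine/threonine kinase, had 10.4, 10.4, 11.7 and 11.7 CPM in Rad KO TAC and 18.7, 19.9 and 17.0 CPM in Rad KO sham, with 17.1 to 18.5 CPM in WT TAC and 15.4 to 18.3 CPM in WT sham. Its log2 change was -0.74 in Rad KO (SE 0.12, adjusted p = 0.0192) and 0.09 in WT, a difference of -0.83 (SE 0.15, unadjusted p = 3.63e-05). Irf2bp2, a transcriptional corepressor, had 69.8, 60.4, 72.5 and 78.3 CPM in Rad KO TAC and 40.0, 37.4 and 41.2 CPM in Rad KO sham, with a log2 change of 0.84 in Rad KO and -0.20 in WT. In Gm33543, Pdzrn4 and Gm19461 the change lay in WT instead, with log2 changes of -1.67, -1.80 and -1.12 there and 0.08, 0.45 and 0.03 in Rad KO. Gm19461 is annotated antisense to another gene, and the strand used in counting is not stated.

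The calls with the smallest p were mostly not load or matrix genes, and the levels of those given next also varied among WT libraries of 1 label. Others varied less there, such as Sik1, with 28.6 to 48.9 CPM in WT TAC and 21.8 to 29.9 CPM in WT sham. Ucp2, a mitochondrial carrier next to Ucp3 on chromosome 7, had 307, 211, 214 and 166 CPM in Rad KO TAC and 60.5, 53.9 and 67.0 CPM in Rad KO sham, a log2 fold change of 1.90 (SE 0.19, adjusted p = 0.00448). In WT it had 112, 85.8, 45.8 and 106 CPM in TAC and 42.3, 121 and 125 CPM in sham, so that WT TAC 3 and WT sham 1 lay near or below the level of Rad KO sham. Mrpl48-ps, a processed pseudogene on chromosome 4, had 13.7, 7.11, 6.50 and 8.29 CPM in Rad KO TAC, 0.519, 0.987 and 0.581 CPM in Rad KO sham, 6.82, 6.59, 0.50 and 8.69 CPM in WT TAC and 1.09, 7.99 and 7.77 CPM in WT sham. The same libraries, WT TAC 3 and WT sham 1, were the low ones. They were low again for Mogat2, an acyltransferase near Ucp2, at 0.111 and 0.306 CPM, and for the pseudogene AC154540.2, at 0 in both. AC154540.2 had 0 counts in all 3 Rad KO sham libraries and 29, 24, 22 and 26 counts in Rad KO TAC, at least 23.9-fold higher than a floor of 3 counts over the sham group.

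On chromosome 1, Mndal, Ifi205 and Ifi213, members of an interferon-inducible family with near copies that may share reads, were close to absent in Rad KO TAC. Mndal had 0.0628, 0.130, 0.365 and 0 CPM in Rad KO TAC and 8.45, 10.3 and 8.85 CPM in Rad KO sham (log2 fold change -5.92, SE 0.45, adjusted p = 0.00112). In WT it was at most 0.480 CPM except in WT TAC 4, which had 6.45 CPM. Pcp4l1, related to a calmodulin-binding protein and on the same chromosome, had 43.7, 56.8, 49.5 and 72.0 CPM in Rad KO TAC and 158, 137 and 168 CPM in Rad KO sham (-1.47, SE 0.15, adjusted p = 0.00448). Among WT TAC libraries it was highest in WT TAC 4, at 87.2 CPM, within the range of the WT sham libraries. A stretch of chromosome 7 from Dgat2 to Ucp2, chr7:99153658-100502020 in the deposited tables (mm10), held 21 tested genes and 4 calls (19.0%), Dgat2 and Ucp3 lower and Mogat2 and Ucp2 higher. The stretch was chosen after its values were seen. The background was 1.69%, and the part of differences between mice other than TAC was not tested. Wdfy1, also on chromosome 1, had 14.1, 32.9, 19.3 and 30.1 CPM in Rad KO TAC and 5.49, 4.08 and 5.23 CPM in Rad KO sham, and was as low as that in WT TAC 1 and 2, at 3.93 and 5.2 CPM.

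The number of calls rested on the 3 sham libraries. Without Rad KO sham 1, 5 genes rose and 6 fell, and without sham 3, 22 rose and 20 fell. Without sham 2, the library with little Esr1, 3 rose and 4 fell, and 0 members of the gene lists passed. All 239 genes were tested in these 3 fits and kept their sign. As TAC and sham libraries did not overlap in any of them, leaving out a sham library could hardly reverse a sign. The 6 genes called whichever sham library was left out included Ucp2, Mrpl48-ps, Mndal, Ifi205 and Pcp4l1. In the model of all 14 libraries, Pcp4l1 (adjusted p = 0.0530), Ucp3 (0.0507) and AC154540.2 (0.0649) missed the threshold. Cilp was lost without sham 1 and without sham 2, with log2 fold changes between 3.25 and 3.88 over the 12 alternative fits. Nppb was lost without the same 2 libraries, Edn3 without sham 2 (adjusted p = 0.0503), and Comp, Postn, Cpt1a, Ankrd1 and Ryr2 without any 1 of the sham libraries. Ankrd1 and Ryr2 were also lost without TAC 1 and without TAC 3, and Cpt1a without TAC 3. On the TAC side, leaving out TAC 4 gave 350 rises and 186 falls, while leaving out TAC 1 or TAC 3 gave 113 and 37 or 84 and 32.

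**Figure D5:**
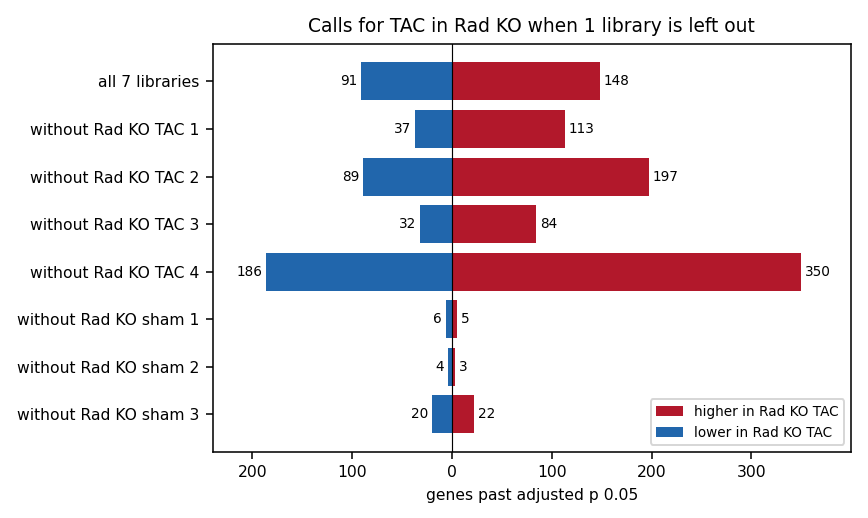
Genes past adjusted p 0.05 for TAC in Rad KO with all 7 libraries and with each library left out, higher in TAC to the right of 0 and lower to the left. Counts drop to 5 and 6, 3 and 4, and 22 and 20 when sham 1, 2 or 3 is left out, and increase to 350 and 186 without TAC 4.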

How the data were processed

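Polyadenylated RNA of mouse heart ventricle was sequenced in 14 libraries, from cDNA inserts of 250 to 300 bases, per the labels' protocols. Raw counts per gene were deposited in 1 table for each genotype label; mm10 as the build, and HISAT2, edgeR and DESeq2 as tools, appear without versions or roles, per the submitters' processing notes. How strand was handled is not stated in the sources used here. The authors also deposited a normalized signal, found here to be each count divided by 1 factor per library, FPKM, and log2 fold changes with p-values and adjusted p-values. Of these, FPKM was used to compare levels between genes. The deposited adjusted p-values were only counted. Those under 0.05 numbered 721 in Rad KO (438 higher, 283 lower) and 910 in WT (588 higher, 322 lower). The DESeq2 fits here gave the same counts, so they are no check separate from the authors' values.

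The 7 Rad KO libraries (23925 genes in the table) were filtered with filterByExpr (minimum count 10, minimum total 15), scaled by TMM and fitted with the edgeR quasi-likelihood test (edgeR 4.0.16, R 4.3.3), Benjamini-Hochberg adjusted over all genes tested, at a threshold of 0.05. SE is the absolute log2 fold change divided by the square root of F. WT was fitted the same way, and the difference of both responses in 1 model of 14 libraries over 22136 genes in both tables. CPM values use TMM over the 14 libraries, and library medians use log2 of CPM plus 0.5. DESeq2 1.42.0, its size factors, no filter, a replicate block, other thresholds and leaving out each library were the alternatives. The fits were tested on simulated data. Reads carry no molecular identifiers.

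Same-numbered TAC and sham libraries deviated together with correlations of 0.0236, 0.0210 and 0.0778 in Rad KO, so the numbers were not taken to pair libraries. Named genes were, in each direction, the 12 protein-coding calls with the largest change and the 8 with the smallest p, each averaging 50 counts or more in its higher group, up to 6 called members of each list, the 6 smallest p of the difference, up to 3 noncoding genes and a fixed set of cardiac genes. Members and lists were chosen with earlier results of these data known. Some genes that met this rule are not reported here.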

Additional observations from a re-analysis of the deposited data

Results flagged for a closer look

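In 11 of 114 named genes, 1 of the 4 Rad KO TAC libraries lay far from the others, measured as its gap to the nearest library over the range of the group, above a critical value of 0.829; chance alone gives about 1 in 20 groups. TAC 2 was the far library in 6 of them. It was high for Nppb (605 CPM, gap ratio 0.843), Ctgf (828 CPM, 0.926), Nppa (1349 CPM, 0.905) and Kcnj11 (123 CPM, 0.899), and low for Adra1a (12.1 CPM, 0.917) and Krt19, an epithelial keratin (0.0652 CPM, 0.846). TAC 1 was low for Cacna1c (239 CPM, 0.854), Pdzrn4 (1.63 CPM, 0.863) and S100a9, a neutrophil protein (0.377 CPM, 0.834). TAC 3 was low for Ucp3 (17.4 CPM, 0.903), and TAC 4 was high for Tnni3, cardiac troponin I (3936 CPM, 0.924). The cause was not tested.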

How the results depend on the processing

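In Rad KO, 148 genes rose and 91 fell, 239 in all. DESeq2 gave 438 and 283 (721 in all), no filter on low counts 367 and 204 (571), and the replicate block 299 and 132 (431, of which 198 were among the 239). DESeq2 size factors in edgeR gave 148 and 93. The model of 14 libraries gave 135 and 72, with 155 of the 239 called again (64.9%). At an adjusted p under 0.01 there were 11 and 5 (16), and with the added demand of a log2 change of 1 or more in size there were 105 and 32 (137). Leaving out 1 library gave 7 to 536 genes, 3 to 350 higher and 4 to 186 lower, and 0 to 84 calls among list members, against 45 with all libraries. In WT, DESeq2 gave 588 and 322 (910), no filter 495 and 287 (782), an adjusted p under 0.01 48 and 11 (59), and leaving out 1 library 15 to 614, with 13 to 397 higher and 2 to 217 lower. The difference of responses had 0 calls by edgeR, 8 by DESeq2 (7 higher, 1 lower), and 0 to 4 with 1 library left out, the 4 without WT sham 1, all higher. Of 73 named genes that were called, 0 changed sign in any alternative. A change was hardly possible in these genes, since their TAC and sham libraries did not overlap, so this is no check of the calls. Of 41 not called, 7 did change sign, in at least 1 alternative (Cfd, Rrad, Esr1, Myl2, Myl3, Gm33543 and Gm19461). Calls were lost for 62, 67 and 51 named genes without sham 1, 2 and 3. The cause of these losses was not tested, and each of these fits also had 1 library fewer. At 3 sham libraries, genes under the threshold are not shown to be unchanged.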
